A study of Homo sapiens with 16 samples.

Results

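The MYC and PVT1 locus was taken as the stretch of chromosome 8 from 128000000 to 129500000 (hg19), and its members were all ChIP-seq peaks that any of 8 peak lists placed there, whatever their strength. There were 37 such peaks, 29 for CTCF and 8 for p53, of 76863 peaks in all lists. The lists came from MCF10A, a nontransformed human mammary epithelial line, in its parental form (MCF10A) and after introduction of HRas carrying the G12V mutation (G12V), with 2 replicates for each factor and cell type. All p53 samples, of both cell types, were treated with Nutlin, a stabiliser of p53, before fixation, and no p53 sample without Nutlin was analysed here. The study's methods give no Nutlin for the CTCF samples. Per the study's methods, HRas was overexpressed from a lentiviral vector under hygromycin selection, so that G12V is a selected population that overexpresses the oncogene. The comparison asks whether the 2 factors bound this locus differently before and after transformation.

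MYC encodes a transcription factor that drives growth and proliferation and is a common oncogene, and PVT1 is a long noncoding RNA gene that follows it on the same strand. Enhancers for MYC are spread over the gene deserts on both sides, among noncoding RNA genes such as CCAT2, CASC8, CASC11 and PCAT1, and a CTCF site just before the MYC promoter is known as an anchor for contacts with such enhancers. CTCF is a zinc-finger protein that stops the cohesin ring at domain borders and loop anchors, preferentially where the motifs of a pair of sites point at each other, while p53 is a tumor suppressor that activates genes through paired half-sites, and PVT1 is among its known targets.

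The CTCF lists held 11346 and 20136 peaks in MCF10A replicates 1 and 2 and 12004 and 27678 in G12V replicates 1 and 2, and the p53 lists held 1718, 885, 477 and 2619 in the same order. Depth differed less than list length, since the peaks had been called at 10.7 to 13.5 M reads for CTCF and at 9.26 to 23.9 M reads for p53 (1 M is 1e6 reads). Both replicate 2 lists of CTCF were longer than both replicate 1 lists, and p53 G12V replicate 1, whose peak names carry the word "old", was the shallowest library and the shortest list. A site missing from a list did not reach the caller's q-value threshold of 5% in that library, and is not shown to be unbound there. The p53 lists were checked at 2 textbook targets. The strongest p53 peak within 100 kb of CDKN1A, the cell cycle inhibitor p21, lay at rank percentiles 99.3, 97.1, 97.9 and 99.9, and that of MDM2, the ligase that degrades p53, at 97.5, 72.6, 97.3 and 99.8. Percentile 100 is here the strongest peak of a list by −log10 q, and values of 4 libraries are given in the order MCF10A replicates 1 and 2, then G12V replicates 1 and 2.

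**Figure D1:**
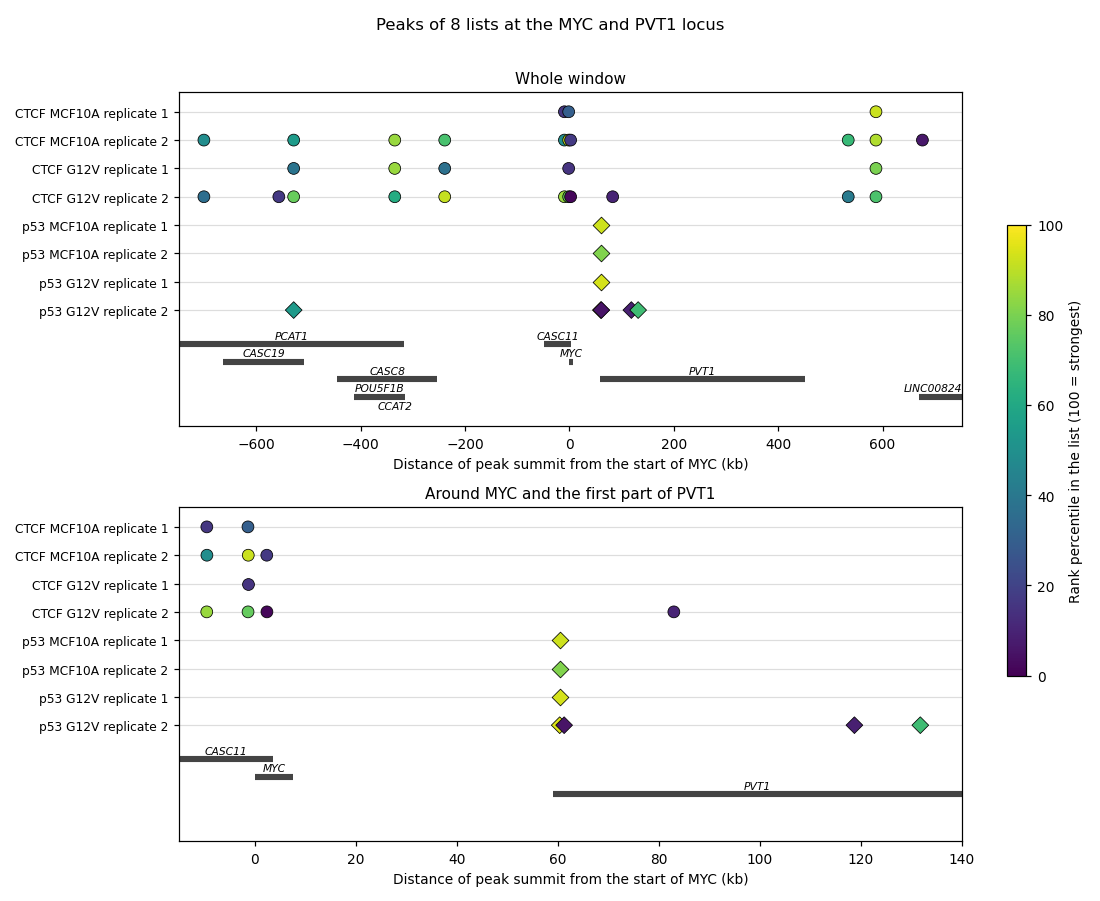
Peaks of the 8 lists (rows, circles for CTCF and diamonds for p53) by the distance of their summits from the start of MYC in kb, over the whole window (top) and around MYC and the first part of PVT1 (bottom), with genes as dark bars. Colour gives the rank percentile of the peak in its own list, 100 being the strongest. The p53 peak near the start of PVT1 stood in all 4 p53 lists, and 2 CTCF sites, at −1.32 and 587 kb, stood in all 4 CTCF lists.

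p53 bound near the start of PVT1 in both cell types. The site, at chr8:128807722-128808656, was the only one of the 5 p53 sites of the window that all 4 lists held, against 11.1% of all 2980 p53 sites (a site is the union of the peaks of a factor that overlap by at least 1 bp). Its summit lay 1.25 kb past the annotated start of PVT1, in an exon and 5 bp from the start of a PVT1 transcript, and 60.3 kb from the start of MYC. Its fold enrichment over local background reached 21.3 and 12.9 in the MCF10A libraries, against 18.6 and 16.8 in the G12V libraries. The G12V values fell between those of the MCF10A replicates. The peak was 133rd of 1718 and 167th of 885 in MCF10A and 32nd of 477 and 138th of 2619 in G12V, or percentiles 92.3, 81.2, 93.5 and 94.8. It was thus a strong peak of every list, below the best peak of CDKN1A in each of them and above that of MDM2 in MCF10A replicate 2 alone.

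The summits of the 4 libraries lay within 28 bp of each other, and a p53 motif with 2 mismatches lay 3 bp from the summit. The fragments piled up at the summit, at the depth used for calling, numbered 61, 28, 49 and 133, over local backgrounds of 1.92, 1.24, 1.69 and 7. The highest pileup and the highest background were both those of G12V replicate 2. In limma's moderated test over the 332 p53 sites held by all 4 lists, on log2 fold enrichment centred on each library's median, the PVT1 site differed by −0.023 (log2, G12V minus MCF10A, SE 0.38, adjusted p = 0.995). The test called 17 of these sites (5.12%), 8 higher and 9 lower in G12V, and the PVT1 site was not among them. On the same 332 sites the count was 0 without centring and 0 with replicate number as a block. Fits that left out a library tested other sets of sites, 751 without G12V replicate 1, so their counts are not comparable. The sign at the PVT1 site did not hold, since the difference was 0.75 without G12V replicate 2. It was 0.64 on log2 pileup in place of fold enrichment (adjusted p = 0.0542 over 306 sites tested). In each fit that leaves out a library, the lone library of that cell type is assumed to vary like the other cell type's replicates. The centred log2 values of the 4 libraries, in their usual order, were 4.12, 4.09, 4.86 and 3.31, so that the G12V replicates were the highest and the lowest of the 4. A difference between the cell types was therefore not detectable at this site.

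**Figure D2:**
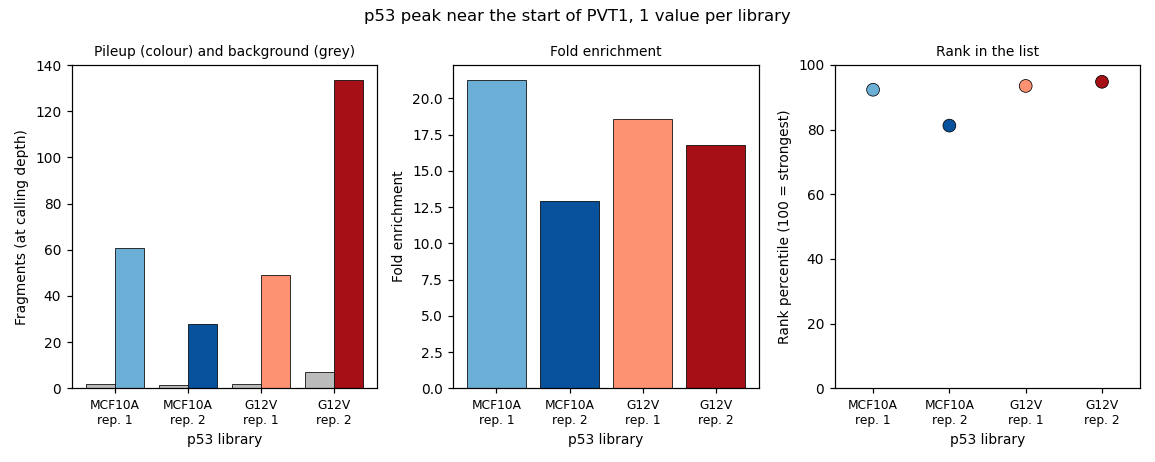
The p53 peak near the start of PVT1 in the 4 p53 libraries (1 bar or point each, no error bars). Left, fragments piled up at the summit (coloured) and local background (grey) at calling depth, middle, fold enrichment, right, rank percentile in the list. The pileup was highest in G12V replicate 2, at 133 fragments, while its fold enrichment of 16.8 lay between the MCF10A values of 21.3 and 12.9.

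The other 4 p53 sites of the window stood in the G12V replicate 2 list alone, which holds for 38.5% of all p53 sites. The strongest of them, at chr8:128879227-128879605, lay in an intron of PVT1, 72.6 kb past its start, with a fold enrichment of 11.1 and percentile 69.1. A second intronic site, at chr8:128866292-128866593 and 59.6 kb past the start, had a fold enrichment of 4.68 and percentile 8.94. Another, at chr8:128808788-128809048, directly followed the PVT1 start site, with a fold enrichment of 4.40 and percentile 5.16. Together with the start site, 4 of the 5 p53 sites lay inside PVT1, all in its first 72.6 kb out of 393 kb. PVT1 is itself a large part of the 1.5 Mb window. The remaining site, at chr8:128219267-128219602, lay in an exon of the noncoding RNA gene CASC19, 528 kb before the start of MYC, with a fold enrichment of 7.43 and percentile 54.0.

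Being listed by G12V replicate 2 alone was common among its weaker peaks. Of all its 2619 peaks, 43.8% lay at a site of no other list, and of the 1313 at percentile 50 or above, to which the CASC19 peak and the intronic peak at 72.6 kb belong, 21.1% did. This library also had the largest calling depth of the p53 libraries. No p53 site of the window was specific to a cell type, meaning held by both lists of one and neither of the other (2.18% of all p53 sites for MCF10A, 1.41% for G12V).

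Per 10000 listed peaks, the window held 5.82 and 11.3 p53 peaks for MCF10A, against 20.96 and 19.1 for G12V. Both G12V values were above both MCF10A values, with means of 8.56 ± 3.87 and 20.03 ± 1.32 (SD, n = 2 each). The exact two-sided permutation test gave p = 0.333, the smallest that 6 assignments allow. In 3 of the 4 libraries the value came from the PVT1 start site alone, divided by lists of unequal length, and with lists cut to equal length each held that 1 peak and the log2 ratio went from 1.23 to 0. The exact binomial 95% interval, which covers counting error only, ran from 0.531 to 116 for G12V replicate 1. The density of p53 sites was 3.33 per Mb, against 1.07 over chromosome 8 and 0.963 over the genome, and without G12V replicate 2 the window held 1 p53 site in place of 5.

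CTCF bound immediately before MYC in all libraries, though at very different ranks. The site, at chr8:128746159-128746530, had its summit at −1.32 kb from the start of MYC, in an intron of the antisense noncoding RNA gene CASC11 and 149 bp from a CASC11 transcript start. It was one of 2 of the 12 CTCF sites that all 4 lists held, against 27.5% of all 29064 CTCF sites. The 4 fold enrichments were 4.65, 12.1, 3.42 and 11.3, and the percentiles were 30.0, 91.8, 14.9 and 76.2. Both replicate 2 libraries were high and both replicate 1 libraries were low, while the cell types overlapped. Local background at the summit was 4.37, 3.41, 8 and 3.57 fragments, under pileups of 24.0, 52.3, 29.8 and 50.6. G12V replicate 1 thus combined the lowest fold enrichment with the highest background, 4 times the median of its list.

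The other CTCF site of all 4 lists lay on the far side of PVT1, at chr8:129334925-129335280, 587 kb past the start of MYC. The annotation puts it between genes, 259 bp from the start of an unnamed noncoding RNA gene. It was high in each library, with fold enrichments of 9.59, 12.5, 8.56 and 10.1 and percentiles 92.1, 88.2, 79.7 and 71.6. Its percentiles spanned a narrower range than those of the site before MYC, and both MCF10A percentiles were above both G12V ones, while the fold enrichments of the cell types overlapped. The limma test over the 8006 CTCF sites of all 4 lists gave a difference of −0.47 (SE 0.52, adjusted p = 0.994) for the site before MYC and of −0.44 (SE 0.45, adjusted p = 0.994) for this one (log2, G12V minus MCF10A). When each library was left out, the first ran from −0.92 (without MCF10A replicate 1) to −0.070 (without MCF10A replicate 2) and the second from −0.78 (without G12V replicate 1) to −0.071 (without G12V replicate 2). The test called 0 of the 8006 sites (0%), with 403 at an unadjusted p under 0.05 (44 without centring), and the same test on log2 pileup called 42, neither of these sites among them.

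**Figure D3:**
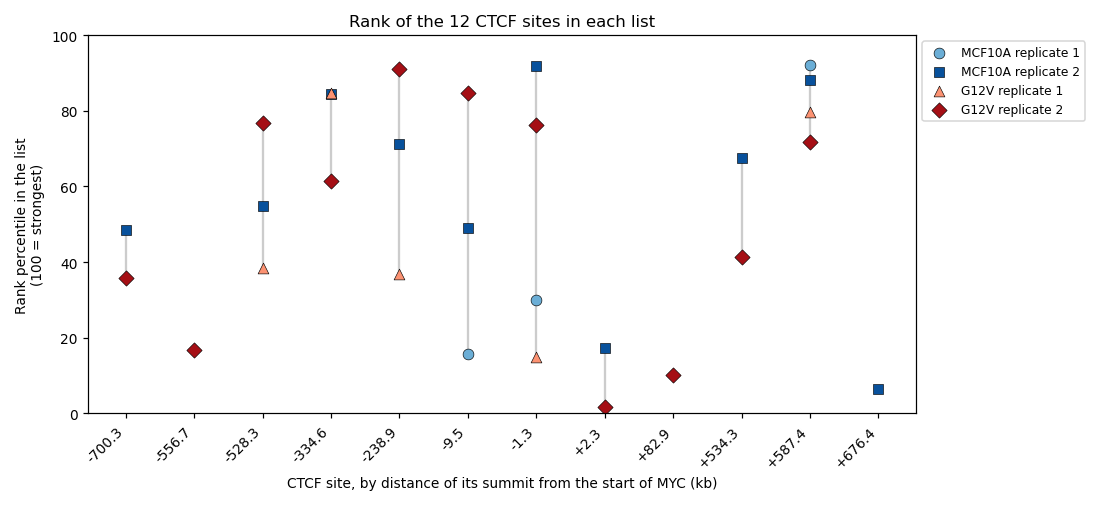
Rank percentile (100 is the strongest peak of a list) of the 12 CTCF sites of the window in each CTCF list, by distance of the site's summit from the start of MYC in kb. Each marker is 1 library and a missing marker means that the list held no peak there. The site at −1.32 kb ran from 14.9 to 91.8, and the site at 587 kb from 71.6 to 92.1.

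A further 2 CTCF sites flanked the start of MYC. The first, at chr8:128737936-128738383 and −9.54 kb, in an intron of CASC11, had percentiles of 15.7 in MCF10A replicate 1, 49.1 in MCF10A replicate 2 and 84.6 in G12V replicate 2, with fold enrichments of 4.35, 7.71 and 13.6. It was missing from G12V replicate 1, a pattern shared by 9.73% of all CTCF sites. The second, at chr8:128749917-128750169 and 2.35 kb past the start, lay in a UTR of MYC, 36 bp from an internal transcript start. It was the only one within 1000 bp upstream to 500 bp downstream of a MYC transcript start. This site was weak, at percentiles 17.2 in MCF10A replicate 2 and 1.74 in G12V replicate 2 (fold enrichments 5.72 and 4.17). It stood in exactly the 2 replicate 2 lists, as did 19.1% of all CTCF sites. The CTCF signal around MYC was thus strongest before the gene.

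PVT1 itself held a single CTCF site in its 393 kb, at chr8:128830530-128830763, in an intron 23.9 kb past its start. It stood in the G12V replicate 2 list alone (25.4% of all CTCF sites) at percentile 10.1 and a fold enrichment of 4.51. It was also the CTCF site nearest to the start of PVT1 and to each p53 site within PVT1, the latter at 21.7 to 48.8 kb. The next CTCF site followed 451 kb later, the widest gap in the window. The 12 sites came to 8 per Mb, against 9.23 on chromosome 8 and 9.39 over the genome.

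The gene desert before MYC held 5 CTCF sites, at −700, −557, −528, −335 and −239 kb. The 3 nearest to MYC were each held by MCF10A replicate 2 and both G12V libraries and missing from MCF10A replicate 1, a pattern seen at 8.9% of all CTCF sites. The site at −335 kb lay in an exon of CCAT2, a noncoding RNA gene of the cancer risk region before MYC. The annotation also puts it in introns of PCAT1, CASC8 and the protein-coding gene POU5F1B. Its percentiles were 84.5 in MCF10A replicate 2 and 84.6 and 61.5 in G12V. The site at −239 kb, between genes, had percentiles 71.1, 36.8 and 91.1 in the same libraries, and the site at −528 kb, in an exon of CASC19, had 54.7, 38.4 and 76.6. Such gaps are found among strong peaks too. Of the 6924 peaks at percentile 75 or above in the G12V replicate 2 list, 81.3% were at a site that MCF10A replicate 1 held and 97.9% at one that MCF10A replicate 2 held. The peaks at −239 and −528 kb belong to this group, while that at −335 kb, at 61.5, does not.

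Of the other 4 sites, those at −700 kb (PCAT1 intron) and 534 kb (between genes) stood in both replicate 2 lists, at percentiles 48.5 and 35.8 and 67.4 and 41.4 in MCF10A and G12V. Those at −557 kb (CASC19 intron, G12V replicate 2) and 676 kb (LINC00824 intron, MCF10A replicate 2, as for 3.37% of all CTCF sites) stood in 1 list each, at percentiles 16.8 and 6.53. No CTCF site was specific to a cell type (0.261% of all CTCF sites for MCF10A, 3.33% for G12V). The replicate 2 lists, which are the longer ones, held 10 (MCF10A) and 11 (G12V) of the 12 sites. The replicate 1 lists held 3 and 5. Of the 9 sites in both replicate 2 lists, 3 were also held by MCF10A replicate 1 and 5 by G12V replicate 1, against 57.1% and 55.8% of all sites in both replicate 2 lists. Without MCF10A replicate 1 the count of sites in all lists was 5 in place of 2, without MCF10A replicate 2 and without G12V replicate 1 there were 3 and 2 G12V-specific sites, and without MCF10A replicate 1 or G12V replicate 2 there was 1 MCF10A-specific site.

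Per 10000 listed peaks, the window held 2.64 and 4.97 CTCF peaks for MCF10A, against 4.17 and 3.97 for G12V. The G12V values lay between the MCF10A values, with means of 3.81 ± 1.64 and 4.07 ± 0.135 (SD, n = 2 each, exact two-sided permutation p = 1). The log2 ratio of 0.10 turned to −0.29 without MCF10A replicate 1, to 0.62 without MCF10A replicate 2 and to −0.51 in a narrower window, from 100 kb before MYC to 100 kb past PVT1. The median percentile of the window's CTCF peaks was 30.0, 61.0, 38.4 and 61.5 in the 4 libraries. Ranked by fold enrichment instead of −log10 q, the mean of the 4 medians was 25.4 in place of 47.7, so the window's CTCF peaks stood lower in their lists by fold enrichment than by significance.

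CTCF and p53 met at 1 place. The CTCF site at −528 kb and the p53 site in the CASC19 exon overlapped by 321 bp, with summits 76 bp apart, and 3.09% of all p53 sites overlapped a CTCF site by at least 1 bp. Per the study's methods only the p53 samples had Nutlin, so binding of both factors under 1 condition was not measured. In G12V replicate 2, the only replicate label with both peaks, fold enrichment there was 13.7 for CTCF and 7.43 for p53. Neither summit had the motif of its own factor within the 150 bp searched. The CTCF fold enrichment at this site was 6.99 in MCF10A replicate 2 and 6.12 in G12V replicate 1.

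The CTCF consensus motif, 12 positions with at most 1 mismatch on either strand within 150 bp around the summit, was found in 5 of the 12 CTCF sites, or 41.7% (exact 95% interval 15.2 to 72.3%), against 52.1% of all CTCF sites and 67.5% of those in all 4 lists. Both sites held by all 4 lists had it. The site before MYC had a match without mismatch on the plus strand, 1 bp from its summit, and the site at 587 kb had a match with 1 mismatch on the minus strand, so these motifs pointed at each other across MYC and PVT1. Without any mismatch allowed, 2 of the 12 sites (16.7%) had a motif, those at −557 and −1.32 kb, against 17.0% of all CTCF sites, and the facing motif at 587 kb was lost. Of 3628 neighbouring pairs of CTCF sites that were in all 4 lists and had a motif, 26.1% faced each other in this way. The other matches were at −700 and −557 kb, on the minus strand, and at −335 kb, on the plus strand. The p53 motif, a pair of half-sites with intact core bases and at most 3 mismatches, was found in 2 of the 5 p53 sites, or 40% (5.27 to 85.3%), against 70.4% of all p53 sites and 88.9% of those in all 4 lists. These were the PVT1 start site and the intronic site at 59.6 kb, which had 3 mismatches.

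Local background was raised at the window's peaks in each library, relative to its whole list. For p53, MCF10A replicates 1 and 2 and G12V replicate 1 each held only 1 peak in the window, that near the start of PVT1. CTCF MCF10A replicate 1 held 3. The ratio of the median background at the window's peaks to that of the whole list was 2.63, 1.59, 1.31 and 1.78 for CTCF and 1.25, 1.24, 1.19 and 1.5 for p53, above 1 in 8 of 8 libraries, with a median of 1.40. Against the rest of chromosome 8 it ran from 1.13 to 2.34, again above 1 in 8 of 8. Against peaks within 10 Mb on either side, a reference chosen after seeing the data, it was 2, 1.17, 0.871 and 1.21 for CTCF and 0.983, 0.772, 1.02 and 0.901 for p53, above 1 in 4 of 8. The window's CTCF peaks thus stayed above those of the flanks in 3 of 4 libraries. For p53 this held in 1 of 4, G12V replicate 1, by its 1 peak. In the 10 Mb bins just before and just after the start of MYC the CTCF peaks had 1.25 to 1.5 times the background of their lists, in both cell types. The cause of the raised background was not tested. Fold enrichment divides by this background, and its part in the low fold ranks of the window's CTCF peaks was not tested.

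**Figure D4:**
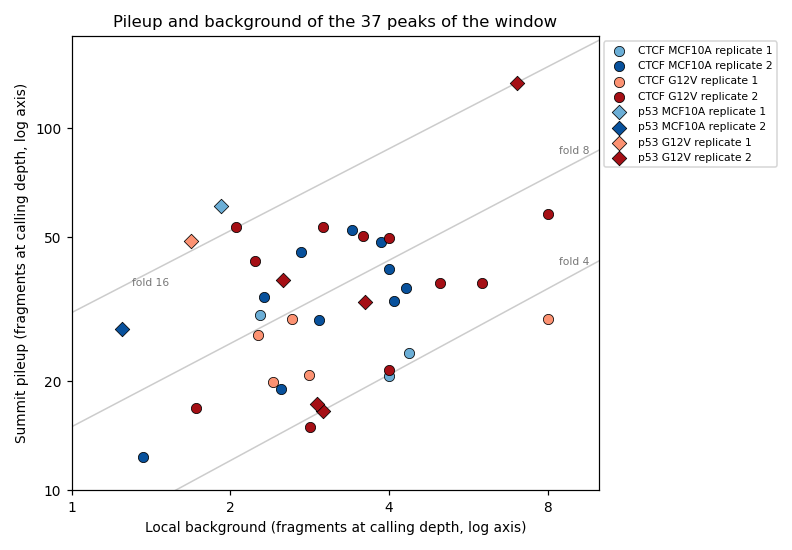
Fragments piled up at the summit against local background, both at calling depth and on log axes, for the 37 peaks of the window (circles CTCF, diamonds p53, colours by library), with grey lines of equal fold enrichment. The p53 peak near the start of PVT1 in G12V replicate 2 is the highest point, at 133 fragments over a background of 7.

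**Figure D5:**
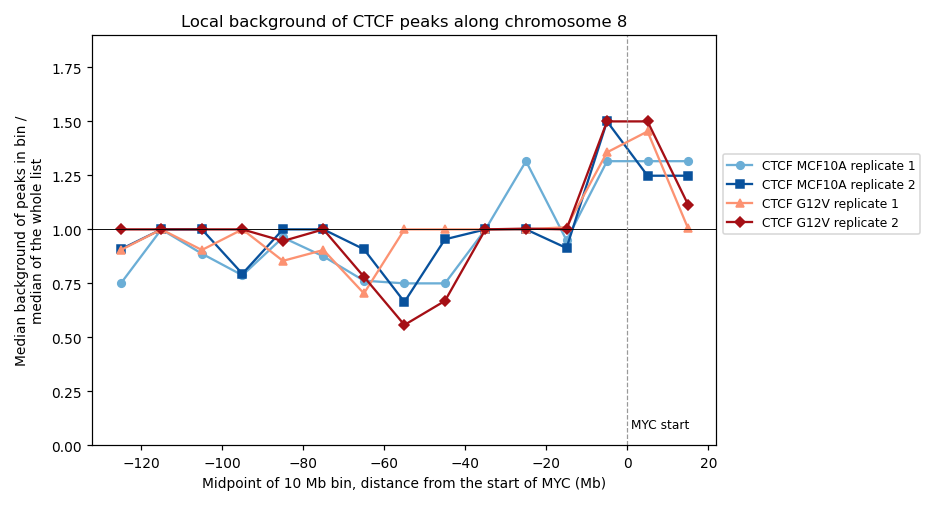
Median local background of the CTCF peaks in 10 Mb bins of chromosome 8, divided by the median of the whole list of the library, by distance of the bin's midpoint from the start of MYC in Mb. Lines are the 4 CTCF libraries, without error bars. In the bins just before and after the start of MYC all 4 libraries lay between 1.25 and 1.5.

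Other genes of the MYC network were read from a list of 13 that encode MYC relatives (MYCN, MYCL), its partner MAX, the antagonists that compete for MAX (MXD1, MXD3, MXD4, MXI1, MNT, MGA), the related MLX branch (MLX, MLXIP, MLXIPL) and ZBTB17, a zinc-finger factor that MYC binds. A promoter CTCF site, within 1000 bp upstream to 500 bp downstream of a transcript start, was found in at least 1 list for 6 of the 13 (MXI1, MGA, MLXIPL, MYCN, MYCL and ZBTB17), against 19.5% of 20090 protein-coding genes. For MLXIPL and MYCL it stood in all 4 lists, against 7.3% of those genes. That of MYCN was missing from G12V replicate 1, and that of MXI1 stood in the replicate 2 lists alone. Those of MGA and ZBTB17 stood in G12V replicate 2 alone, the longest CTCF list. The best CTCF peak within 100 kb of MYCL, a MYC relative, had percentiles 45.1, 96.8, 87.0 and 96.7. None of the 13 had a promoter p53 site (1.47% of protein-coding genes did), and 6 had a p53 site within 100 kb in at least 1 list (27%), none of them in all 4 lists (3.66%). At MAX, the obligate partner of MYC, the p53 site within 100 kb had percentiles 59.1 and 42.5 in MCF10A and 74.9 in G12V replicate 2 and was missing from G12V replicate 1. Of MYC, PVT1 and these 13 genes, MYC and PVT1 alone had a p53 site of all 4 lists within 100 kb, the same one. At PVT1 it counted as a promoter site through an internal transcript start 5 bp away, since it lay 1.25 kb past the annotated start. The share of protein-coding genes with a promoter p53 site of all 4 lists was 0.233%, but PVT1 is a noncoding gene, so this reference is unlike.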

How the data were processed

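CTCF and p53 ChIP-seq was analysed from 8 peak lists of 16 samples, the 8 inputs having entered through the peak caller. Per the labels and the study's methods, the authors aligned unique reads to hg19 with Bowtie and called peaks with MACS at default settings. Each deposited list covers 1 library and gives the fold enrichment, which is a ratio, −log10 p, −log10 q and a score that is the whole part of 10 times −log10 q. Pileup and background were solved from the deposited fold enrichment and −log10 p, for 100% of peaks with −log10 p up to 200. Calling depth followed for a mappable genome of 2.7 Gb. Genes came from GENCODE release 44 mapped to GRCh37, which named 13 of 18 preset genes of the locus. Tools were Python 3.11.15, pandas 2.3.3, scipy 1.17.1, R 4.3.3 and limma 3.58.1 (trend, Benjamini-Hochberg adjustment, threshold 0.05), tested on simulated data. Groups came from sample titles. The extract protocol in the labels describes the p53 immunoprecipitation for every sample, CTCF included, while the antibody label and the study's methods give a CTCF antibody for the CTCF samples and Nutlin for p53 samples. The rule named each p53 site, each CTCF site in all 4 lists or specific to a cell type, those nearest the starts of MYC and PVT1, and sites shared by both factors, and the other sites were given by position. The members and lists were chosen with earlier results of these data known. Replicates are biological per the study. Sequence of this chromosome is not reported here.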

Additional observations from a re-analysis of the deposited data

How the results depend on the processing

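List length and calling depth were not equalised together, and which of them limits the comparison more was not tested. Alternatives comprised 4 that were chosen after seeing the data: log2 pileup (for each factor), flanks of 10 Mb as reference and the replicate 2 lists alone. The log2 ratio of CTCF peaks per 10000 (0.10) went to −0.51 in the narrower window, −0.32 in the replicate 2 lists alone and 0 with equal lists, and ran from −0.29 to 0.62 when each library was left out. That of p53 (1.23) went to 0 with equal lists. Leaving out each library, CTCF sites in all lists ran from 2 to 5, MCF10A-specific ones from 0 to 1 and G12V-specific ones from 0 to 3, while p53 sites ran from 1 to 5 and G12V-specific ones from 0 to 4, the 4 arising without G12V replicate 1. Equal lists left 1 p53 site and a −log10 q of at least 5 left 3. The CTCF rank of 47.7 went to 68.1 at sites of all 4 lists and to 25.4 by fold enrichment. With at most 1 mismatch 0% of the p53 sites had a motif, and with none 16.7% of the CTCF sites in place of 41.7%. limma on log2 pileup called 42 of 8006 CTCF sites in place of 0. For p53 it called 72 of the 306 sites tested, in place of 17 of 332. Without centring it called 0 p53 sites, and when each library was left out it called 0 (without MCF10A replicate 2) to 53 (without G12V replicate 1), with 7 without MCF10A replicate 1. The difference at the PVT1 site went from −0.023 to 0.094 without centring and 0.64 on log2 pileup, and ran from −0.43 to 0.75 when each library was left out. At the CTCF sites before MYC and at 587 kb it ran from −0.92 to −0.070 and from −0.78 to −0.071. The causes were not tested. At sites held by all 4 lists, replicate differences of the 2 cell types were nearly uncorrelated (correlation of deviations 0.0488 for CTCF and 0.0214 for p53). The libraries were centred on their medians first, so this could not see a replicate effect on list length or on which sites were listed. Whether replicate numbers pair the samples was therefore not settled. With the replicate block limma called 0 CTCF and 0 p53 sites, with differences of −0.47, −0.44 and −0.023 at the MYC, 587 kb and PVT1 sites. Under the other alternatives run, no named result turned its direction or crossed its threshold.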

Other observations

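One motif match lay outside the comparisons and was noticed after the values were seen. The CTCF site at chr8:129334925-129335280, 587 kb past the start of MYC and in all 4 CTCF lists, also held a p53 motif with 1 mismatch, 53 bp from its summit. No p53 list had a peak there, and the 4 p53 lists had been called at 21.4, 20.1, 9.26 and 23.9 M reads. Such a match with at most 1 mismatch was found at 5 of all 29064 CTCF sites (0.0172%), of which 1 overlapped a p53 site and 4 did not. With up to 3 mismatches it was found at 174 CTCF sites (0.599%), of which 13 overlapped a p53 site. The other 11 CTCF sites of the window had no p53 motif. None of the 5 p53 sites of the window held a CTCF motif, which 1.68% of all p53 sites did.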
